A study of Mus musculus with 12 samples.

Results

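The 54 genes described here encode the chains of the collagens, the laminins and the nidogens, the structural proteins of the extracellular matrix. They were taken from the array annotation by symbol (Col followed by a number and a chain number, Lama, Lamb, Lamc and Nid), and 1 transcript cluster, the array's unit of measurement for a gene, was found for each. They are 54 of 30176 symbols that have a cluster of their own, among 65956 transcript clusters in all. Col6a4 and Col7a1 shared a cluster with another gene and were left out of the counts.

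The study asked whether the testis program starts in mouse gonads without AMH and activin B. It measured E12.5 gonads of 3 kinds, each on 4 arrays: XY gonads lacking both genes (Amh-/-; Inhbb-/-, dKO XY), XX gonads with both genes intact (control XX, fetal ovary) and XY gonads with both genes intact (control XY, fetal testis). All came from matings of mice heterozygous for Amh and Inhbb on a C57BL/6 background, the deletions are constitutive, and the gonads were separated from the adjoining mesonephros. Amplified RNA was put on Clariom D arrays of Affymetrix, and all levels below are the deposited log2 intensities. Whole gonads were measured, so fewer cells of a type and less RNA per cell cannot be told apart. At E12.5 the study reported, from staining, that laminin outlined the forming cords of control XY and dKO XY gonads alike. It called the expression profiles of these groups statistically indistinguishable, with a 2-fold cut and FDR-corrected p under 0.05. No fold cut was applied to the calls below, but 6 of the lower calls in dKO XY gonads are at least 2-fold. These are Nid1, Col14a1, Lamb1, Col3a1, Col4a1 and Col1a2.

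Collagens are trimers of chains wound into a triple helix, which form fibrils, networks or coats on fibrils according to type. In a basement membrane, a sheet of laminin trimers and a sheet of collagen IV lie together and are bridged by nidogen. In the fetal testis, Sertoli cells and the peritubular cells around them lay down such a sheet around each testis cord, and vessels and surface epithelium have basement membranes of their own.

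Promoter sequences are shown first for the genes on which the comparisons turn. Col4a1 and Col4a2 encode the chains of the most widespread collagen IV network and lie head to head, so that 1 short region serves both as promoters. Their gene starts in RefSeq (GRCm38.p6) are 21 bases apart, and the windows from 250 bases before to 50 bases after each start share 78 bases, printed in capitals. The window of Col4a1 is chr8:11312777-11313076 on the minus strand and that of Col4a2 is chr8:11312555-11312854 on the plus strand, each read 5′ to 3′ on the strand of its gene.
Col4a1: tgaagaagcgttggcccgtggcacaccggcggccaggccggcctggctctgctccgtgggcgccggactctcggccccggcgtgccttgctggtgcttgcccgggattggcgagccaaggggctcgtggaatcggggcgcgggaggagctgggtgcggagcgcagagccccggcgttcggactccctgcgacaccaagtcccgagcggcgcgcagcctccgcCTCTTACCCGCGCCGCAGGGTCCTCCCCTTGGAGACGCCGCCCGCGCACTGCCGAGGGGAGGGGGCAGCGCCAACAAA
Col4a2: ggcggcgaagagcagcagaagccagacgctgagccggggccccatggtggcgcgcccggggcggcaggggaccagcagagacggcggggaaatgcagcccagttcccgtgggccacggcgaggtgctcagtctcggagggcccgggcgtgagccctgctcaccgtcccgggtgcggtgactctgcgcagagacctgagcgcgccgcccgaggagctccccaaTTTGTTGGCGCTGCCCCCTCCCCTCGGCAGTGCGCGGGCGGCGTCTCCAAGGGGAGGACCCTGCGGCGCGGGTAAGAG

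The windows of Nid1, which encodes nidogen 1 (chr13:13437352-13437651, plus strand), and Lamb1, which encodes the commonest laminin beta chain (chr12:31265043-31265342, plus strand), are shown because both genes passed the test as lower in both comparisons with control XY. Capitals mark the GC box (GGGCGG on either strand), the binding motif of SP1-type factors.
Nid1: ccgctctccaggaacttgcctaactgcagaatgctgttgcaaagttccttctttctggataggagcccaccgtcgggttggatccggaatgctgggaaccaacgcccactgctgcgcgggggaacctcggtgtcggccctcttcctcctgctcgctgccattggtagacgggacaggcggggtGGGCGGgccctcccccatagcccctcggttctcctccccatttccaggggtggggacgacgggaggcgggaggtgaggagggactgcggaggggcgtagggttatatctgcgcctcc
Lamb1: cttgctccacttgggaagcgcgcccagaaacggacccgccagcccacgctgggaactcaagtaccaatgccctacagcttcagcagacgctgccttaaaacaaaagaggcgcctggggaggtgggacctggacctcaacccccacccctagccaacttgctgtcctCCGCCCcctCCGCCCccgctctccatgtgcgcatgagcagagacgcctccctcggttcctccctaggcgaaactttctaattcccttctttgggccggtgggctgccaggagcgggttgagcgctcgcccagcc

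RefSeq windows were at hand for 39 of the 54 genes (43 windows). A GC box was found in 25 of these 43 windows (58.1%), and in 35.7% of all 32851 windows. The window of Nid1 held 1 GC box, that of Lamb1 2, that of Col4a1 1 and that of Col4a2 3. The SMAD element CAGAC is a motif bound by SMAD proteins such as those that carry activin signals. It occurred on either strand in 25 of the 43 windows (58.1%), against 49.6% of all windows. It occurred once each in the windows of Lamb1 and Col4a2 and was not among the letters of the Nid1 or Col4a1 window. The TATA box TATAAA occurred on the gene's strand in 5 of the 43 windows (11.6%), one of them that of Col3a1, and in 8.32% of all windows. These matches describe letters and are no evidence of binding.

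Of the deleted genes, Amh was far lower in dKO XY than in control XY arrays, and Inhbb was lower by less. Amh read 5.79, 5.59, 5.90 and 5.71 in dKO XY arrays 1 to 4, between 5.14 and 5.52 in control XX arrays, and 11.33, 11.40, 13.38 and 10.56 in control XY arrays. Inhbb read 6.69 to 6.99 in dKO XY arrays, 6.49 to 6.97 in control XX arrays and 7.10 to 8.02 in control XY arrays. Its dKO XY minus control XY difference was −0.59 ± 0.18 (adjusted p = 0.035). The dKO XY arrays overlapped the control XX arrays, where the gene is intact. Arrays of the groups were unequal in signal contrast, an array's mean over positive control probe sets less its mean over negative ones. It was 3.11 ± 0.585 in dKO XY arrays and 3.41 ± 0.228 in control XX arrays, against 4.07 ± 0.317 in control XY arrays (mean ± SD, n = 4 each). The differences from control XY had two-sided exact permutation p = 0.0571 for dKO XY and p = 0.0286, the smallest that 4 against 4 arrays allow, for control XX. The arrays dKO XY 3 (2.48) and dKO XY 1 (2.83) were lowest and control XY 3 (4.44) was highest. The 32 of the 54 genes whose mean lay above the median of the negative control probe sets (6.36) averaged 7.29, 7.58, 7.20 and 7.48 in dKO XY arrays 1 to 4 and 7.26 to 7.54 in control XX arrays, against 7.79, 7.76, 8.08 and 7.82 in control XY arrays. The order of these averages over the 12 arrays largely follows that of signal contrast, as the plot of both by array shows. Differences with signal contrast as a covariate are given below beside the main results. Because signal contrast differed with the groups, its part and that of the group cannot be told apart in that fit. A call lost there does not show that the groups are equal. Confidence intervals are for single genes and, unlike adjusted p, take no account of the number of clusters.

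**Figure D1:**
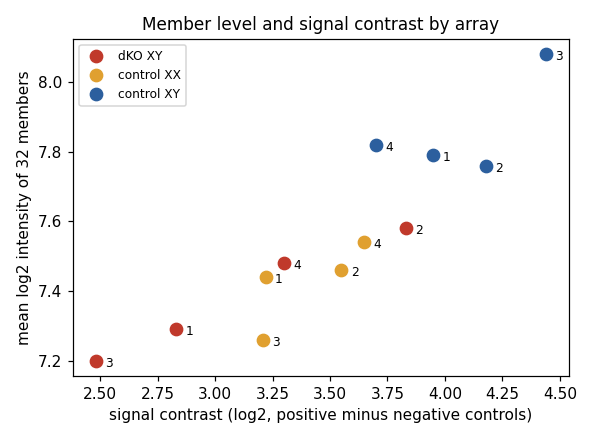
Each point is an array, labelled with its replicate number, with signal contrast (log2) on the x axis and the mean log2 intensity of the 32 brighter genes on the y axis. The 4 control XY arrays lie above the dKO XY and control XX arrays on the y axis, and dKO XY 3 and dKO XY 1 have the lowest signal contrast (2.48 and 2.83).

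In dKO XY gonads, 14 of the 54 genes were lower than in control XY gonads and 2 were higher. The 14 were Nid1, Lamb1, Lama1 and Lama4 of the laminin and nidogen genes, Col4a1, Col4a2 and Col18a1 of the basement membrane collagens, Col1a2 and Col3a1 of the fibrillar collagens, Col6a1, Col6a2 and Col6a3 of collagen VI, and Col14a1 and Col9a3 of the fibril-associated collagens. Their falls ran from 1.24-fold (Col9a3) to 3.17-fold (Nid1). Of all symbols, 14.7% were lower and 16.3% were higher in this comparison (9.8% and 16.7% of all clusters). Among the 32 brighter genes 14 were lower and 1 was higher, against 25.8% and 9.21% of all symbols above the negative control median. These symbols were not matched to the 32 genes in level. The median difference was −0.38 for the 32 genes and −0.21 for such symbols. Over all 54 the median was 0.03, against 0.17 over all clusters. In 16 genes all 4 dKO XY arrays lay below all control XY arrays (11.9% of symbols), and in 6 all lay above (16.8%).

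All 14 lower calls depended on single arrays. With 1 array left out, the largest adjusted p of each gene ran from 0.059 (Nid1) to 0.124 (Col9a3). The differences over the leave-outs were −1.88 to −1.50 for Nid1, −1.66 to −1.23 for Lamb1 and −0.87 to −0.50 for Lama4. No gene passed without dKO XY 1 or without control XY 3, and only Nid1 passed without dKO XY 3. None passed without both dKO XY 1 and dKO XY 3 or with signal contrast as a covariate. Over all 65956 clusters, 0 passed in either direction with the covariate, and without both dKO XY 1 and dKO XY 3, 0 were higher and 4 lower. The differences of the 14 genes kept their sign in each of these fits, and with the covariate they lay between −1.06 (Col14a1) and −0.01 (Lama4), with adjusted p from 0.992 to 0.999.

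In control XX gonads, 8 of the 54 genes were lower and 1 was higher than in control XY gonads, where 2.13% of symbols were lower and 0.696% higher (1.34% and 0.608% of all clusters). The 8 were Nid1, Lamb1, Lama4, Col4a1, Col4a2, Col18a1, Col14a1 and Col9a3, and the higher gene was Col12a1 (4.33-fold). The falls ran from 1.66-fold (Col9a3) to 5.98-fold (Col14a1). All 9 were among the 32 brighter genes. Of all symbols above the negative control median, 3.73% were lower and 0.924% higher. Apart from Lamb1, each passed in all 12 leave-outs, after quantile normalization and with signal contrast as a covariate. All control XX arrays were below all control XY arrays in 13 genes (9.45% of symbols) and above them in 5 (8.33%). Both comparisons use the same 4 control XY arrays, so values are given side by side.

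**Figure D2:**
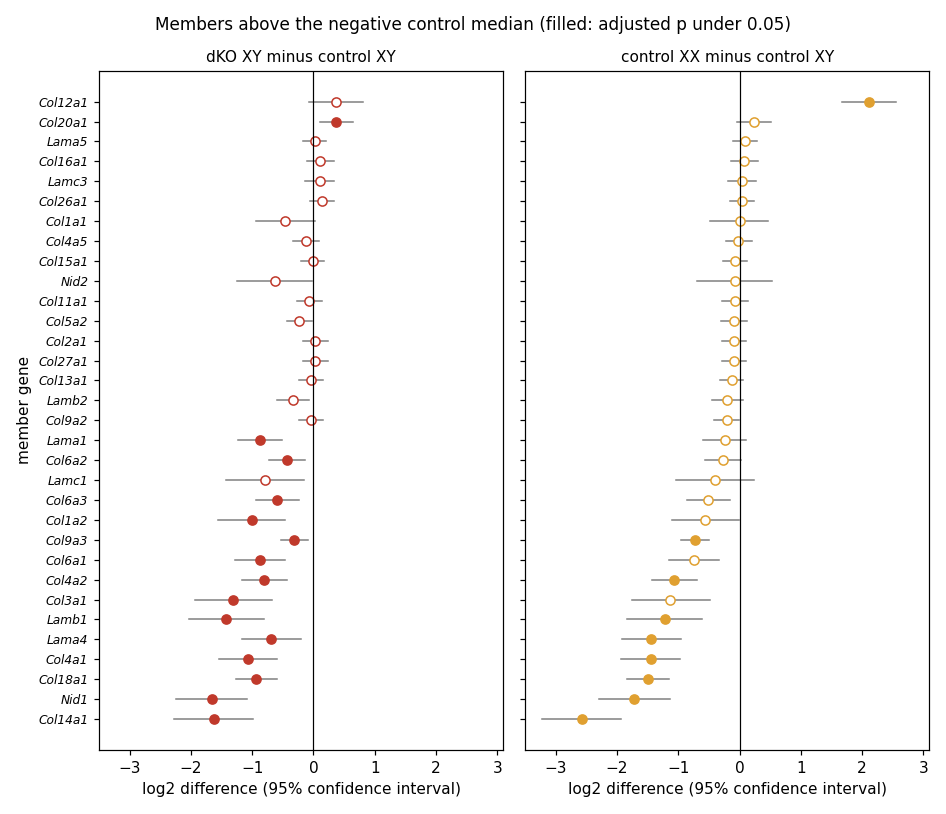
Points are log2 differences of the 32 brighter genes with 95% confidence intervals, dKO XY minus control XY on the left and control XX minus control XY on the right, ordered by the right panel. Filled points passed the test (adjusted p under 0.05): 14 lower and 1 higher on the left, 8 lower and 1 higher on the right, with Col14a1 at −1.63 and −2.58 and Col12a1 at 0.37 and 2.11.

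Nid1, whose product bridges laminin and collagen IV, read 8.15, 9.23, 8.07 and 8.86 in dKO XY arrays 1 to 4 and 8.46, 8.70, 8.02 and 8.91 in control XX arrays, against 10.19, 10, 10.64 and 10.14 in control XY arrays. Every dKO XY and control XX array was below every control XY array. It fell by 1.66 ± 0.27 in dKO XY gonads (log2 difference ± SE, 3.17-fold, adjusted p = 0.0152) and fell by 1.72 ± 0.27 in control XX gonads (3.29-fold, adjusted p = 0.00534). It was the called gene of the dKO XY comparison that lost its call in the fewest leave-outs, those of dKO XY 1 (adjusted p = 0.059) and control XY 3. After quantile normalization it was lower by −1.27 in dKO XY gonads (adjusted p = 0.0346). With signal contrast as a covariate the difference was −0.79 (95% confidence interval −1.27 to −0.31, adjusted p = 0.992).

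Nid2, which encodes nidogen 2, a protein that can stand in for nidogen 1, did not pass the test in either comparison. It read 8.83, 9.75, 8.51 and 8.73 in dKO XY arrays and 9.29, 9.79, 9.19 and 9.76 in control XX arrays, against 9.25, 9.21, 10.16 and 9.73 in control XY arrays. The groups overlapped. The difference was −0.63 ± 0.28 in dKO XY gonads (adjusted p = 0.0973) and −0.08 ± 0.28 in control XX gonads (95% confidence interval −0.69 to 0.53, adjusted p = 0.87).

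A laminin is a trimer of an alpha, a beta and a gamma chain. Lamb1 read 9.20, 10.23, 8.93 and 9.69 in dKO XY arrays and 9.46, 9.98, 9.29 and 10.13 in control XX arrays, against 10.85, 10.74, 11.43 and 10.71 in control XY arrays. All dKO XY and control XX arrays lay below the lowest control XY array. It fell by 1.42 ± 0.28 in dKO XY gonads (2.68-fold, adjusted p = 0.0206; −0.43 with the covariate) and by 1.22 ± 0.28 in control XX gonads (2.33-fold, adjusted p = 0.0472). The control XX call was close to the threshold: it was lost in 9 of the 12 leave-outs, after quantile normalization (adjusted p = 0.0508) and with signal contrast as a covariate (adjusted p = 0.276).

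Lamc1, which encodes the gamma chain that most laminins with the Lamb1 chain contain, read 8.96, 9.98, 8.57 and 9.51 in dKO XY arrays and 9.55, 9.82, 9.06 and 10.15 in control XX arrays, against 9.89, 10.02, 10.38 and 9.88 in control XY arrays. Its differences of −0.79 ± 0.29 in dKO XY gonads (adjusted p = 0.0593) and −0.40 ± 0.29 in control XX gonads (adjusted p = 0.405) did not pass the test. The highest dKO XY array, dKO XY 2, was within the control XY range.

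Among the genes of the alpha chains, which carry the sites for cell receptors, Lama1 and Lama4 passed the test as lower in dKO XY gonads. Lama1, whose chain is typical of the first basement membranes of the embryo, read 7.58, 7.80, 7.43 and 7.65 in dKO XY arrays and 7.83, 8.57, 8.11 and 8.45 in control XX arrays, against 8.37, 8.41, 8.76 and 8.39 in control XY arrays. Every dKO XY array was below every array of the other groups. It fell by 0.87 ± 0.16 in dKO XY gonads (1.83-fold, adjusted p = 0.0202, and −0.48 with the covariate), while control XX gonads overlapped control XY gonads (−0.24 ± 0.16, adjusted p = 0.371). The dKO XY minus control XX difference was −0.63 ± 0.16 and did not pass the test over all clusters (adjusted p = 0.247).

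Lama4 encodes a chain found in the basement membranes of vessels and mesenchymal tissues. It read 8.44, 9.18, 8.08 and 8.86 in dKO XY arrays and 8.06, 8.07, 7.56 and 7.87 in control XX arrays, against 9.11, 9.21, 9.70 and 9.30 in control XY arrays. Control XX arrays were lowest, and dKO XY 2 overlapped the control XY arrays. It fell by 0.69 ± 0.22 in dKO XY gonads (1.61-fold, adjusted p = 0.0416), a call lost in 8 of 12 leave-outs and after quantile normalization (adjusted p = 0.247). With signal contrast as a covariate that difference was −0.01 (95% confidence interval −0.46 to 0.45). It fell by 1.44 ± 0.22 in control XX gonads (2.71-fold, adjusted p = 0.0052). All dKO XY arrays exceeded all control XX arrays (0.75 ± 0.22, adjusted p = 0.31), and with the covariate dKO XY minus control XX was 0.96 (adjusted p = 0.0173). The remaining laminin genes did not pass in either comparison. Lamb2, which encodes the beta chain of mature and neuromuscular basement membranes, was nearest, with 7.43, 7.55, 7.31 and 7.55 in dKO XY arrays against 7.69, 7.78, 8.04 and 7.65 in control XY arrays (−0.33 ± 0.12, adjusted p = 0.0547).

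**Figure D3:**
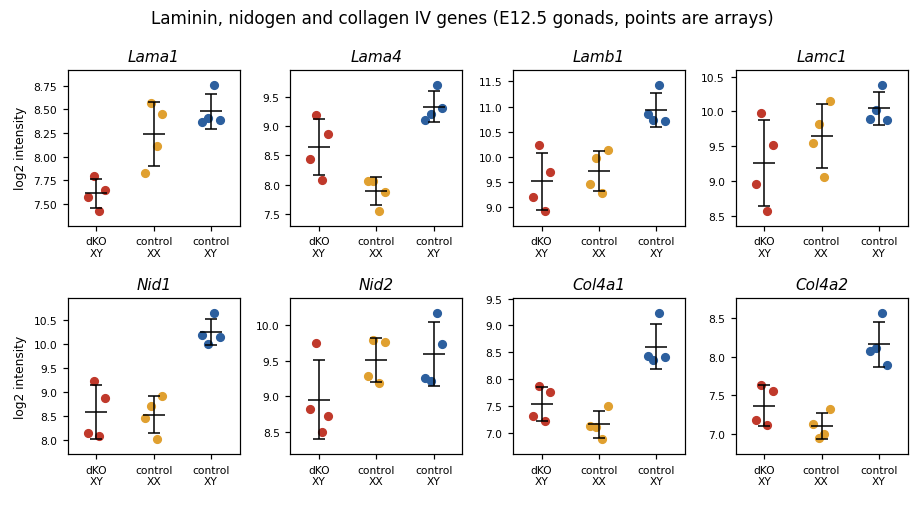
Points are the log2 intensities of single arrays for 4 laminin, 2 nidogen and 2 collagen IV genes in dKO XY, control XX and control XY gonads, with the mean and SD (n = 4 each), and each panel has its own y axis. For Nid1, Lamb1, Col4a1 and Col4a2 every dKO XY and control XX array lies below every control XY array, and for Lama1 only the dKO XY arrays do.

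Both genes of the head-to-head collagen IV pair fell in both comparisons, as did Nid1, Lamb1, Lama4, Col18a1, Col14a1 and Col9a3. Col4a1 read 7.31, 7.86, 7.22 and 7.76 in dKO XY arrays and 7.13, 7.10, 6.88 and 7.49 in control XX arrays, against 8.43, 8.35, 9.23 and 8.41 in control XY arrays. Col4a2 read 7.17, 7.63, 7.11 and 7.55 in dKO XY arrays and 7.13, 6.94, 7 and 7.32 in control XX arrays, against 8.08, 8.11, 8.57 and 7.89 in control XY arrays. In both genes control XY 3 was the highest array and no dKO XY or control XX array reached the control XY range. Col4a1 fell by 1.07 ± 0.22 in dKO XY gonads (2.09-fold, adjusted p = 0.0212) and fell by 1.45 ± 0.22 in control XX gonads (2.74-fold, adjusted p = 0.0043). Col4a2 fell by 0.80 ± 0.17 in dKO XY gonads (1.74-fold, adjusted p = 0.0213) and by 1.07 ± 0.17 in control XX gonads (2.09-fold, adjusted p = 0.00621). After quantile normalization the dKO XY differences were −0.90 for Col4a1 (adjusted p = 0.0491) and −0.71 for Col4a2 (adjusted p = 0.0515), and with the covariate they were −0.45 and −0.32.

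The other 4 collagen IV genes, which encode the chains of networks limited to some tissues, stayed near the negative control level, between 5.74 and 6.95 on single arrays. Col4a6 passed as higher in dKO XY gonads (6.38, 6.20, 6.50 and 6.34, against 6.17, 6.08, 5.89 and 6.07 in control XY arrays, a difference of 0.31, adjusted p = 0.0493), but its mean of 6.23 was below the negative control median, and the difference was 0.03 after quantile normalization (adjusted p = 0.777) and 0.12 with the covariate. Its head-to-head neighbour Col4a5 differed by −0.12 (adjusted p = 0.341).

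Col18a1 encodes collagen XVIII, a basement membrane collagen and the precursor of endostatin. It read 7.63, 8.10, 7.59 and 7.98 in dKO XY arrays and 7.30, 7.09, 7.26 and 7.42 in control XX arrays, against 8.47, 8.84, 9.08 and 8.64 in control XY arrays. The 3 groups did not overlap, with dKO XY between the controls. It fell by 0.93 ± 0.16 in dKO XY gonads (1.91-fold, adjusted p = 0.018) and fell by 1.49 ± 0.16 in control XX gonads (2.81-fold, adjusted p = 0.000323). The dKO XY fall was −0.52 with signal contrast as a covariate (95% confidence interval −0.89 to −0.14, adjusted p = 0.992), and that of control XX was −1.21 (adjusted p = 0.00272). The dKO XY minus control XX difference of 0.56 ± 0.16 did not pass as deposited (adjusted p = 0.298) and was 0.69 with the covariate (adjusted p = 0.0402). Col15a1, the other gene of this class, differed by −0.01 in dKO XY gonads and by −0.07 in control XX gonads.

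Among the fibril-forming collagens, whose trimers give connective tissue its tensile strength, Col3a1 and Col1a2 fell in dKO XY gonads. Col3a1 read 8, 9.06, 7.87 and 8.55 in dKO XY arrays and 8.65, 8.32, 8.22 and 9.02 in control XX arrays, against 9.53, 9.25, 10.37 and 9.57 in control XY arrays. Every array of both groups was below every control XY array. It fell by 1.31 ± 0.29 in dKO XY gonads (2.48-fold, adjusted p = 0.0222), and the difference was −0.95 after quantile normalization (adjusted p = 0.0534) and −0.45 with the covariate. The control XX difference of −1.13 ± 0.29 did not pass the test (adjusted p = 0.0718).

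Collagen I is a trimer of Col1a1 and Col1a2 chains. Col1a2 read 7.54, 8.33, 7.35 and 7.78 in dKO XY arrays and 8.55, 8.15, 7.65 and 8.44 in control XX arrays, against 8.71, 8.29, 9.19 and 8.87 in control XY arrays. It fell by 1.01 ± 0.25 in dKO XY gonads (2.02-fold, adjusted p = 0.0246; −0.44 with the covariate) and differed by −0.56 ± 0.25 in control XX gonads (adjusted p = 0.222). The groups overlapped through dKO XY 2 and control XY 2. Col1a1 read 7.56, 8.19, 7.61 and 7.78 in dKO XY arrays and 8.61, 8.41, 7.70 and 8.24 in control XX arrays, against 8.39, 7.75, 8.52 and 8.29 in control XY arrays, and neither difference passed (−0.46 ± 0.22, adjusted p = 0.122, and 0 ± 0.22, adjusted p = 0.996). Col5a1, which encodes a chain of the collagen that nucleates fibrils, differed by −0.27 in dKO XY gonads (adjusted p = 0.054) and passed only after quantile normalization (−0.51, adjusted p = 0.0489). The other 7 fibrillar genes lay between −0.23 and 0.20 in dKO XY gonads, and none passed.

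Fibril-associated collagens sit on the surface of collagen fibrils, and the genes that differed most between control XX and control XY gonads belong to this class. Col14a1, which encodes collagen XIV, read 7.67, 8.31, 7.56 and 8.77 in dKO XY arrays and 7.36, 7.11, 6.93 and 7.12 in control XX arrays, against 8.86, 10.09, 9.97 and 9.92 in control XY arrays. The 3 groups did not overlap, although dKO XY 4 and control XY 1 were close. It fell by 1.63 ± 0.30 in dKO XY gonads (3.1-fold, adjusted p = 0.0191) and fell by 2.58 ± 0.30 in control XX gonads (5.98-fold, adjusted p = 0.000626). With the covariate these differences were −1.06 (adjusted p = 0.992) and −2.19 (adjusted p = 0.0129). The dKO XY minus control XX difference was 0.95 ± 0.30 (adjusted p = 0.342).

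Col12a1, which encodes the related collagen XII, was the 1 gene of the 54 that rose in control XX gonads. It read 6.93, 6.99, 6.87 and 7.13 in dKO XY arrays and 8.59, 9.09, 8.04 and 9.17 in control XX arrays, against 6.65, 6.67, 6.62 and 6.50 in control XY arrays. The control XX arrays stood apart from both XY groups. It rose by 2.11 ± 0.20 in control XX gonads (4.33-fold, adjusted p = 0.000181). All dKO XY arrays were above all control XY arrays, by 0.37 ± 0.20 on average, which did not pass the test (adjusted p = 0.166).

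Col9a3, which encodes a chain of the collagen IX best known from cartilage, read 7.29, 7.25, 7.10 and 7.29 in dKO XY arrays and 6.91, 6.86, 6.84 and 6.65 in control XX arrays, against 7.52, 7.53, 7.68 and 7.44 in control XY arrays. It fell by 0.31 ± 0.10 in dKO XY gonads (1.24-fold, adjusted p = 0.045), a call lost in 9 of 12 leave-outs (−0.23 with the covariate), and it fell by 0.73 ± 0.10 in control XX gonads (1.66-fold, adjusted p = 0.00309). Of 4 cartilage markers, Sox5 and Matn1 averaged above the negative control median over the 12 arrays and Acan and Comp below it. Col20a1, another gene of the class, passed as higher in dKO XY gonads, with 6.81, 6.44, 6.82 and 6.54 against 6.41, 6.35, 6.05 and 6.32 in control XY arrays (0.37, 1.29-fold). Its call was lost in 10 of 12 leave-outs and after quantile normalization (0.14, adjusted p = 0.241), and its difference with the covariate was 0.04.

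**Figure D4:**
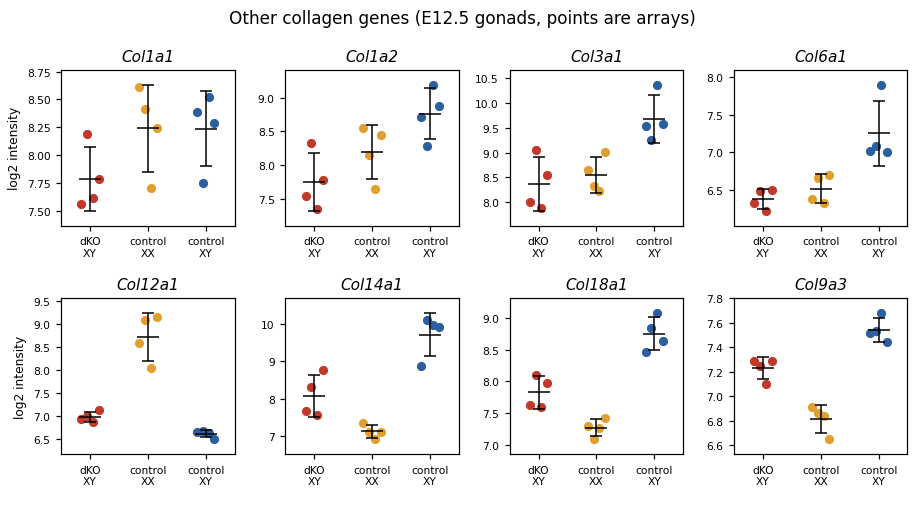
Points are the log2 intensities of single arrays for 8 collagen genes in dKO XY, control XX and control XY gonads, with the mean and SD (n = 4 each), and each panel has its own y axis. The control XX arrays of Col12a1 (8.04 to 9.17) lie above both XY groups, and for Col14a1 and Col18a1 dKO XY lies between the controls.

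Collagen VI, a beaded filament next to basement membranes, is a trimer of the products of Col6a1, Col6a2 and Col6a3 in most tissues, and all 3 fell in dKO XY gonads. Col6a1 read 6.32, 6.48, 6.22 and 6.50 in dKO XY arrays and 6.37, 6.66, 6.32 and 6.70 in control XX arrays, against 7.02, 7.09, 7.90 and 7 in control XY arrays. It fell by 0.87 ± 0.19 in dKO XY gonads (1.83-fold, adjusted p = 0.0218, and −0.43 with the covariate), and control XX gonads, whose arrays were also all below control XY, differed by −0.74 ± 0.19 (adjusted p = 0.0687). Col6a3 fell by 0.59 ± 0.16 (adjusted p = 0.0292) and Col6a2 by 0.43 ± 0.13 (adjusted p = 0.0373) in dKO XY gonads. Both lost their calls after quantile normalization and were −0.23 and −0.17 with the covariate, and for Col6a3 the dKO XY arrays (7.21 to 7.69) overlapped the control XY arrays (7.67 to 8.39). Their differences in control XX gonads were −0.51 and −0.27 and did not pass.

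Col9a2, Col13a1, Col16a1 and Col26a1 lay above the negative control median and did not pass the test in either comparison. The other genes not yet described were dim. The 22 members below the negative control median included all 3 network collagen genes (Col8a1, Col8a2 and Col10a1) and 3 of 4 transmembrane collagen genes, and none of these 22 was lower in either comparison. The plot of differences against level shows that the dim genes lay slightly above 0 in dKO XY gonads and the bright ones below it. Over all clusters the median difference was 0.17 in dKO XY gonads as deposited and −0.01 after quantile normalization, where 8 of the 54 genes were lower and none was higher. That scaling also changed the counts over all clusters, with 11036 higher and 6465 lower as deposited and 835 higher and 975 lower after it. The 8 were Nid1, Lamb1, Lama1, Col4a1, Col5a1, Col6a1, Col14a1 and Col18a1.

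**Figure D5:**
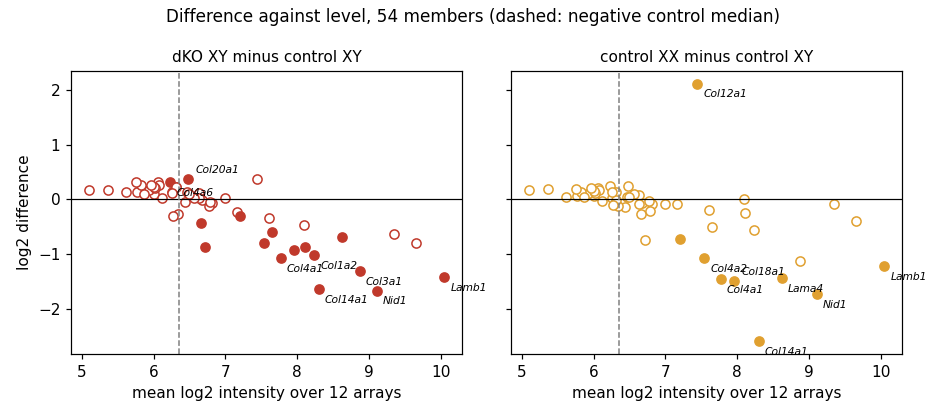
Each point is 1 of the 54 genes, with its mean log2 intensity over the 12 arrays on the x axis and its log2 difference on the y axis, dKO XY minus control XY on the left and control XX minus control XY on the right; filled points passed the test and the dashed line is the negative control median (6.36). The lower calls lie right of the line in both panels, and Col12a1 (2.11) stands alone above 0 on the right.

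Between dKO XY and control XX gonads, 1 of the 54 genes passed the test. Col12a1 fell by 1.74 ± 0.20 in dKO XY gonads (3.35-fold, adjusted p = 0.00387), and it kept the call in each leave-out (adjusted p at most 0.0275) but not without both dKO XY 1 and dKO XY 3 (−1.67, adjusted p = 0.0644). None was higher. Over all symbols 0.156% were higher and 0.176% lower (0.0895% and 0.126% of all clusters). Nid1 differed by 0.05 ± 0.27 (95% confidence interval −0.52 to 0.63), Lamb1 by −0.20 ± 0.28 (−0.81 to 0.41) and Col3a1 by −0.18 ± 0.29 (−0.81 to 0.45), and their arrays overlapped. For Col4a1 the difference was 0.39 ± 0.22 and for Col4a2 0.27 ± 0.17, neither past the test (adjusted p = 0.54 and 0.572).

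Genes that make, process and bind these proteins were followed through a list of 48, of which 43 were measured. In dKO XY gonads 21 were lower and 2 higher (median −0.36), and in control XX gonads 11 were lower and none higher (median −0.40). Of all symbols 14.7% and 2.13% were lower in these comparisons, and of symbols above the negative control median, where 33 of the 43 lay, 25.8% and 3.73% were. The same shares apply to the groups of this list. The lower calls in dKO XY gonads were again absent without dKO XY 1, dKO XY 3 or control XY 3, and those in control XX gonads numbered 4 to 12 over the leave-outs. With signal contrast as a covariate none of the 43 was lower in dKO XY gonads and 3 were in control XX gonads. Between dKO XY and control XX none passed. Of 16 genes for modifying and folding collagen chains, 11 were lower and 1 higher in dKO XY gonads, and 5 were lower in control XX gonads.

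Plod2, a lysyl hydroxylase that prepares collagen for crosslinking, fell by 1.02 ± 0.23 in dKO XY gonads (adjusted p = 0.0221) and by 1.73 ± 0.23 in control XX gonads (adjusted p = 0.00183). P3h4, a partner of the collagen-modifying enzymes, fell by 1.12 ± 0.25 and by 1.48 ± 0.25 in the same groups (adjusted p = 0.0222 and 0.00984). With the covariate the dKO XY differences were −0.28 for Plod2 and −0.26 for P3h4, and those of control XX were −1.22 (adjusted p = 0.00447) and −0.89 (adjusted p = 0.0276). P4hb, a subunit of prolyl 4-hydroxylase, fell by 1.11 ± 0.27 in dKO XY gonads (adjusted p = 0.0243), and its difference was −0.48 after quantile normalization (adjusted p = 0.118) and −0.13 with the covariate. P3h1 fell by 1.06 ± 0.22 in dKO XY gonads (adjusted p = 0.0212, and −0.35 with the covariate). In control XX gonads P3h1 also fell by 1.06 ± 0.22 (adjusted p = 0.0273, and −0.57 with the covariate). Colgalt2, below the negative control median, was higher in dKO XY gonads (0.31 ± 0.11, adjusted p = 0.0493). Its difference was 0.01 after quantile normalization and 0.17 with the covariate. Serpinh1, the collagen chaperone also called HSP47, averaged 16.54 in dKO XY gonads and 17.59 in control XY gonads (−1.05 ± 0.25, adjusted p = 0.023), a difference of −0.68 after quantile normalization (adjusted p = 0.0723) and −0.41 with the covariate.

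Among 10 processing and crosslinking genes, 5 were lower in dKO XY gonads and 3 in control XX gonads. Pxdn, the peroxidase that crosslinks collagen IV, fell by 1.03 ± 0.26 in dKO XY gonads (adjusted p = 0.0255) and fell by 1.16 ± 0.26 in control XX gonads (adjusted p = 0.0445). Neither call held after quantile normalization (−0.57 and −0.87, adjusted p = 0.0932 and 0.0613) or with the covariate (−0.12 and −0.53), and that of control XX was lost in 9 leave-outs. Lox, which crosslinks fibrillar collagen, fell by 0.75 ± 0.14 in dKO XY gonads (adjusted p = 0.0191; −0.55 with the covariate). Of 5 basement membrane partners, 3 were lower in each comparison. Fn1, fibronectin, fell by 1.81 ± 0.34 in dKO XY gonads (adjusted p = 0.02; −0.82 with the covariate). Tinagl1, a matrix protein that binds laminin, fell by 0.86 ± 0.20 in dKO XY gonads (adjusted p = 0.0223; −0.44 with the covariate). In control XX gonads Tinagl1 fell by 1.48 ± 0.20 (adjusted p = 0.00184; −1.20 with the covariate). Sparc, a collagen-binding protein of basement membranes, fell by 1.5 ± 0.22 in control XX gonads (adjusted p = 0.00355), where its difference with the covariate was −1.30 (adjusted p = 0.0607). Of 12 receptor genes, Itgb1, the integrin beta chain shared by many matrix receptors, and Itga2 were lower in dKO XY gonads (−0.91 and −0.43) and Itga10 was higher (0.33, below the negative control median), and none passed in control XX gonads. The 2 of 12 stand beside 14.7% of all symbols, and Itgb1 was −0.26 after quantile normalization (adjusted p = 0.491) and −0.15 with the covariate.

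Markers of the cells that make matrix moved in the same arrays. As over all clusters, no marker call in dKO XY against control XY held with signal contrast as a covariate. Values under other settings are not given for the markers. Of symbols above the negative control median, 25.8% were lower and 9.21% higher in dKO XY gonads, and 3.73% were lower and 0.924% higher in control XX gonads. Of 4 measured interstitial progenitor markers 3 were lower in dKO XY gonads and 3 in control XX gonads, and their mean level was 8.18 to 9.23 in dKO XY arrays and 8.24 to 8.96 in control XX arrays, against 9.93 to 10.54 in control XY arrays. Of 9 Sertoli cell markers 4 were lower in dKO XY gonads and 7 in control XX gonads, with mean levels of 8.65 to 9.13 and 6.93 to 7.20, against 9.39 to 10 in control XY arrays. Sox9, the defining Sertoli cell gene, read 9.94 to 10.85 in dKO XY arrays and 6.91 to 7.67 in control XX arrays, against 10.04 to 10.68 in control XY arrays. It differed by −0.06 ± 0.23 in dKO XY gonads (adjusted p = 0.859) and by −3.08 ± 0.23 in control XX gonads (adjusted p = 3.27e-05). Acta2, smooth muscle actin of peritubular myoid cells and vessels, read 7.63 to 8.41 in dKO XY arrays and 8.10 to 8.46 in control XX arrays, against 9.43 to 12 in control XY arrays, and was the 1 of 5 myoid markers that was lower in each comparison.

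Of 7 endothelial markers, all above the negative control median, 3 were lower in dKO XY gonads and none in control XX gonads, with mean levels of 7.63 to 8.32 and 7.73 to 8.23, against 8.35 to 8.80 in control XY arrays. Of 4 measured fetal Leydig cell markers 2 were lower in dKO XY gonads and 1 in control XX gonads. Of 5 measured mesonephric markers, 3 of them above the negative control median, 3 were higher in dKO XY gonads and 1 in control XX gonads. Of all symbols, bright and dim, 16.3% and 0.696% were higher in these comparisons. The mesonephric markers had mean levels of 6.49 to 6.72 and 6.46 to 6.65, against 6.07 to 6.24 in control XY arrays. Calb1 was higher by 1.22 in dKO XY gonads (adjusted p = 0.0144) and by 1.30 in control XX gonads (adjusted p = 0.00357), Pax8 by 0.42 and Cdh16, below the negative control median, by 0.48 in dKO XY gonads, and Pax2 and Lhx1 did not pass. Of 7 pre-granulosa markers 1 was higher in dKO XY gonads and 5 in control XX gonads. Neither the 5 germ cell markers nor the 4 cartilage markers included a gene that passed in either comparison. Of 4 macrophage markers 1, Adgre1, was higher in dKO XY gonads, and its level was below the negative control median. The part of cell numbers in the matrix gene differences was not tested.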

How the data were processed

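Total RNA from 12 E12.5 gonad samples was amplified by the authors and hybridized to Affymetrix Clariom D arrays. The deposited table holds 1 column of log2 intensities per array, and per the study's methods such values were RMA-normalized. They were used as deposited (range 2.79 to 19.9). Genes were named from the platform annotation of 2017: of 65956 transcript clusters, 30638 carry 1 symbol, 2176 several and 33142 none, and the cluster with the highest mean was kept per symbol. The 12 arrays were fitted in R 4.3.3 by limma 3.58.1 (functions lmFit and eBayes, a mean for each of 3 groups, no further filter), with Benjamini-Hochberg adjustment over all clusters and adjusted p under 0.05 as the threshold. Each adjusted p in the text is from this limma fit or its alternatives. The fit was tested on simulated data. Signal contrast was compared by two-sided exact permutation over 70 arrangements. Promoter windows are RefSeq sequences of GRCm38.p6.

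Members, lists and tests were chosen with earlier results of these data known. Named were Lama1, Lamb1, Lamc1, Nid1, Nid2, Col4a1, Col4a2, Col1a1, Col1a2 and Col3a1, the 10 called members with the largest difference in each direction per comparison, the 4 such genes of the pathway list, and defining markers. Other members and pathway genes were named after their values were seen. The study calls the samples biological replicates, but the labels give neither animals nor pooling nor batches, so p-values measure the spread between these samples, and the number of arrays limits the precision. Within groups, arrays correlated at 0.974 to 0.992. The samples' labels give the stage used here, and the data statement of the study places the series at a later fetal stage. Plots were drawn with matplotlib 3.10.9 in Python 3.11.15.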

Additional observations from a re-analysis of the deposited data

Results flagged for a closer look

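Of 54 combinations of a named gene and a group, 4 held an array that stood far from the other 3 of its group, all in control XY, where chance alone marks about 1 in 20. Control XY 3 was high for 3 genes: Col4a1 (9.23, against 8.35 to 8.43 in the other control XY arrays), Col6a1 (7.90, against 7 to 7.09) and Lama1 (8.76, against 8.37 to 8.41). Control XY 3 also had the highest signal contrast (4.44) and the highest Amh (13.38). Control XY 1 was low for Col14a1 (8.86, against 9.92 to 10.09).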

How the results depend on the processing

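For dKO XY against control XY, 14 members were lower as reported. The number was 8 after quantile normalization (7 of them among the 14), 0 with signal contrast as a covariate, 0 without the 2 dKO XY arrays of lowest signal contrast (an alternative chosen after seeing the data) and 0 to 18 with 1 array left out: 0 without dKO XY 1 or control XY 3, 1 without dKO XY 3 and 9 without control XY 4. The number of higher members, 2 as reported, was 0 after quantile normalization, with the covariate and without the 2 low arrays. With only the 2 groups compared it was 1, a gene other than those 2. It was 1 among clusters above the negative control median (also chosen after seeing the data), and 0 to 8 with 1 array left out (8 without dKO XY 2). The number of lower pathway genes, 21 as reported, was 7 after quantile normalization (6 of them among the 21), 0 with the covariate and 0 without the 2 low arrays. With 1 array left out it was 0 to 23 (0 without dKO XY 1, dKO XY 3 or control XY 3, 7 without control XY 2). The number of higher pathway genes, 2 as reported, was 0 after quantile normalization, with the 2 groups compared, with the covariate, above the negative control median and without the 2 low arrays. With 1 array left out it was 0 to 4.

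For control XX against control XY, the counts of 8 lower and 1 higher members stayed within 1.5 times under every setting run (7 to 9 lower). The 11 lower pathway genes became 7 after quantile normalization, 3 with the covariate (Plod2, P3h4 and Tinagl1) and 4 to 12 with 1 array left out (4 without control XX 3 or control XY 3, 5 without control XY 4, 6 without control XX 1 or control XY 2, 7 without control XX 2), and 1 gene, Itga6, was higher after quantile normalization (1.06, adjusted p = 0.00564) and with the covariate (1.25), and 0 to 1 were higher with 1 array left out. For dKO XY against control XX, 2 members were higher with the covariate (Lama4 and Col18a1), 0 were lower without the 2 low arrays, and 1 pathway gene was higher after quantile normalization (Sparc), with the covariate (Plod2) and in 1 of the leave-outs. Signal contrast differences kept their sign in each leave-out (−1.20 to −0.75 for dKO XY minus control XY, −0.78 to −0.53 for control XX minus control XY, −0.54 to −0.09 for dKO XY minus control XX). The causes of these changes were not tested, and no named value that passed the test changed sign.

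The replicate numbers did not pair the samples (correlations of same-numbered deviations −0.41 to 0.37). With the number as a replicate block, 11 members were lower and 0 higher in dKO XY, 0 pathway genes were higher there, and 7 pathway genes were lower in control XX. A stricter planned filter, at the 95th percentile of the negative controls (10.3), left none of the 54 members, and each member had 1 cluster, so that using every cluster changes nothing. Levels near the negative control median (6.36) limit what the 22 dim members can show.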

Other observations

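Clusters shared with another gene were kept out of the counts. The cluster of Col7a1, which encodes the anchoring fibril collagen of epithelia, also carries Mir711 and averaged 6.49 in dKO XY, 6.47 in control XX and 6.39 in control XY arrays, and that of Col6a4 also carries Dvwa and averaged 6.31, 6.21 and 6.03 in the same groups. Neither passed the test in any comparison (adjusted p = 0.439 and 0.111 for dKO XY minus control XY).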
